A study of Homo sapiens with 72 samples.

Results

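Gene expression was compared between bystander and control IMR-90 cells 6 hours after exposure, on 8 of the 72 arrays of the series. The members are the 4 bystander and the 4 control arrays labelled 6 h, taken by their labels and paired by replicate number. IMR-90 is a strain of normal human lung fibroblasts, used here at early passage, and each number is 1 of 4 independent experiments that started from a pool of cells of a single frozen vial. Bystander cells grew on thick Mylar that stopped the particles, in the same dish and the same continuous layer as cells on thin Mylar that received 50 cGy of helium ions (125 keV per micron). Control dishes were sham-irradiated and collected at the same time, and the irradiated cells of the 4 dishes gave 4 further arrays at 6 hours. All 3 groups therefore share the strain, the dish type and the hour of collection, and the experiments are repeats of 1 strain.

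Cells that were not hit can respond to hit cells nearby, which is called the bystander effect. Fibroblasts answer inflammatory signals through the transcription factors NF-kB and AP-1, which switch on chemokines, cytokines, prostaglandin synthesis and matrix-degrading proteases. Metallothioneins are small metal-binding proteins whose genes answer zinc and stress through a metal response element, and p53 switches on repair, arrest and death genes after DNA damage.

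Levels are log2 intensities after each array was brought to the same 75th percentile, and a ratio is the difference of 2 levels. Before scaling, the 75th percentile of the control arrays was 10.43, 9.50, 10.05 and 10.44 in experiments 1 to 4, and that of the bystander arrays was 10.01, 9.53, 10.33 and 9.77. Between 66.3% and 73.3% of the spots were well above background on these 8 arrays. The 25246 probes tested were those that were dim or non-uniform on at most 10% of the 72 arrays of the series. The threshold for a call was an adjusted p (Benjamini-Hochberg) below 0.10 in limma, fitted to the 12 arrays of 6 hours with the experiment as a block, and "rose" and "fell" are used of called probes. The number of arrays limits the precision, and a spread given as SD is that over the 4 pairs.

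All 10 fibroblast marker genes, among them COL1A2 and VIM, passed the brightness rule. The epithelial CDH1 and KRT5, the endothelial PECAM1 and CDH5 and the leukocyte genes PTPRC, CD163, CD3D and LYZ were above background on 0 of the 4 control and 0 of the 4 bystander arrays. In all, 3 of 7 epithelial, 4 of 6 endothelial and 3 of 10 leukocyte markers passed the rule, and 0 of these 10 and 0 of the fibroblast markers were called. The median log2 ratio of the 10 fibroblast markers was -0.40, and it was -0.25 without experiment 4 and -0.18 with spike-in scaling. PDGFRB, a growth factor receptor, had the largest ratio among them at -0.81 (adjusted p = 0.168), followed by THY1 at -0.61.

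In bystander cells 73 probes were called, 54 higher and 19 lower than in controls, which is 0.289% of the probes tested (0.214% higher and 0.0753% lower). These stood for 43 genes with a symbol that rose and 15 that fell. The genes that rose the most were the serpin SERPINB2, the chemokines CXCL8 and CXCL5, the cytokine IL33, the collagenase MMP1, the stromelysin MMP3 and the prostaglandin synthase PTGS2, with log2 ratios from 2.84 to 4.62 at the probe that moved most. The genes that fell the most were AP2B1, RGMA, FKBP10 and SEMA4C. The called rises ran from 0.72 to 4.62 on the log2 scale, and 49 of the 54 were past 2-fold. The called falls were smaller, from 0.92 to 2.68 in size, and 14 of the 19 were past 2-fold. The median over all probes tested was -0.01. With an unadjusted p below 0.05 there were 3658 probes, 14.5% of those tested, of which 1634 (6.47%) were higher and 2024 (8.02%) lower.

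Each of the 73 called probes moved the same way in all 4 experiments. Over the tested probes, 7.08% were higher in all 4 pairs and 9.38% lower in all 4. The bystander and control arrays did not overlap for 22 of the 54 rises and for 6 of the 19 falls, against 0.959% and 1.47% of all probes tested. The probes were called on these same pairs, so their like signs and separation are a description and no further support. The size of the response differed between experiments. The median log2 ratio of the called rises was 1.60 in experiment 1, 1.61 in experiment 2, 0.84 in experiment 3 and 1.62 in experiment 4, and that of the called falls was -1.07, -1.13, -0.97 and -1.56.

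**Figure D1:**
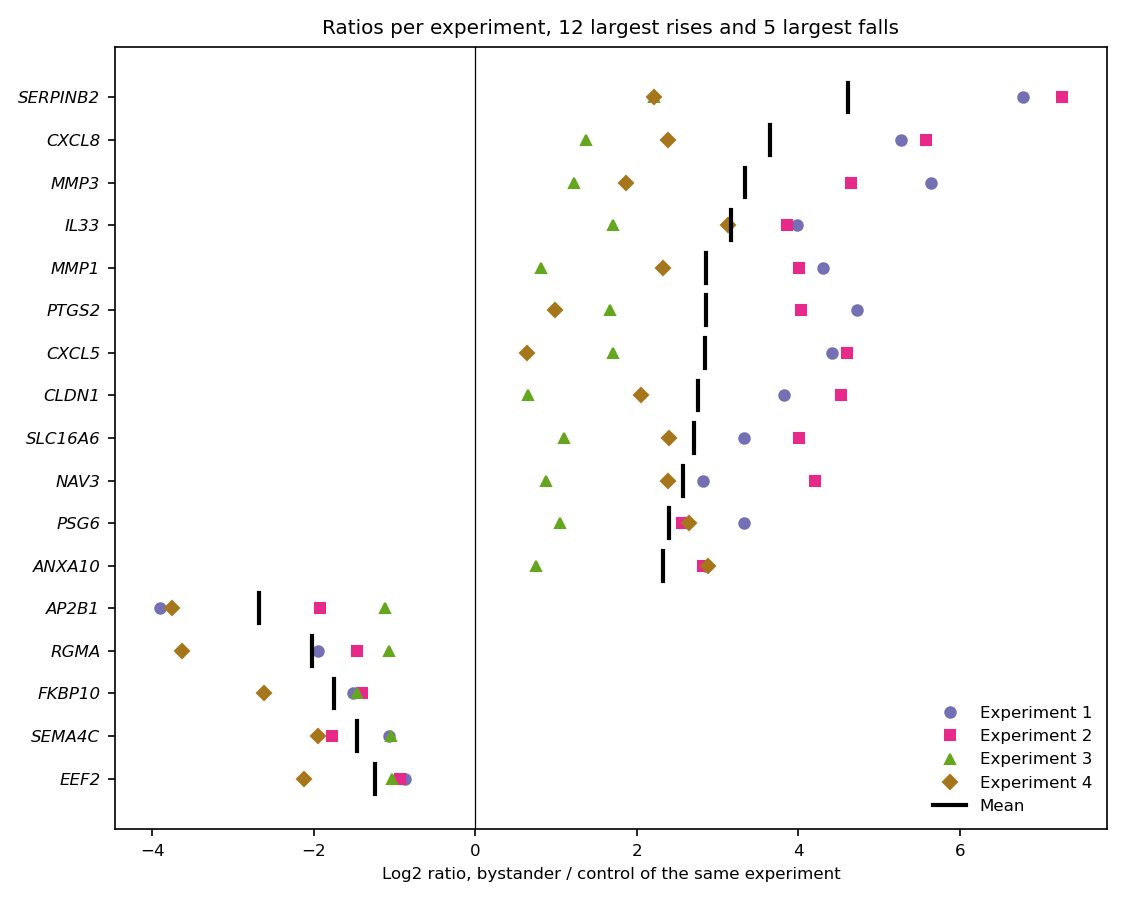
Log2 ratio of bystander to control in each of the 4 experiments (one symbol each) and their mean (bar) for the 12 genes with the largest rise and the 5 with the largest fall among called probes. For SERPINB2, CXCL8 and MMP3 experiments 1 and 2 lie far above experiments 3 and 4, and for RGMA and FKBP10 experiment 4 lies farthest from 0.

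The calls depend on the whole design. Fitted to the 8 bystander and control arrays alone, limma called 0 probes (smallest adjusted p 0.180), with 2113 at an unadjusted p below 0.05, among them all 73. All 73 calls thus need the error estimated with the 4 irradiated arrays, which came from the same dishes as the bystander arrays. The fit takes the arrays of an experiment as equally related, but their deviations from the group means correlated at 0.05, 0.55, 0.88 and 0.82 between irradiated and bystander arrays of experiments 1 to 4 and at 0.05 to 0.43 between bystander and control arrays, so the adjusted p-values given here may be too small. Without the brightness rule 0 probes were called as well (4390 at an unadjusted p below 0.05). The calls fell from 73 to 0 when experiment 1, 2 or 4 was left out, rose to 234 without experiment 3, and fell to 0 without the experiment block. The 4 arrays of a slide held more than 1 group, so that the bystander and control arrays of experiments 1 and 4 shared a slide and those of experiments 2 and 3 did not. Slide 1 held bystander array 1 and controls 1 and 2, and slide 2 held bystander array 2 and control 3. Slide 3 held bystander arrays 3 and 4 and control 4. Within slides, 54, 54 and 53 of the 54 rises and 19, 18 and 19 of the 19 falls kept their direction on slides 1, 2 and 3. These comparisons mix experiments and use the arrays on which the probes were called, so the like directions were largely set in advance. With the slide as a fixed block 0 probes were called (3519 at an unadjusted p below 0.05). Scaling to added spike-in transcripts moved the median of all probes to 0.20 and gave 489 higher and 7 lower, while the unscaled values moved that median to -0.20 and gave 40 higher and 14 lower.

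**Figure D2:**
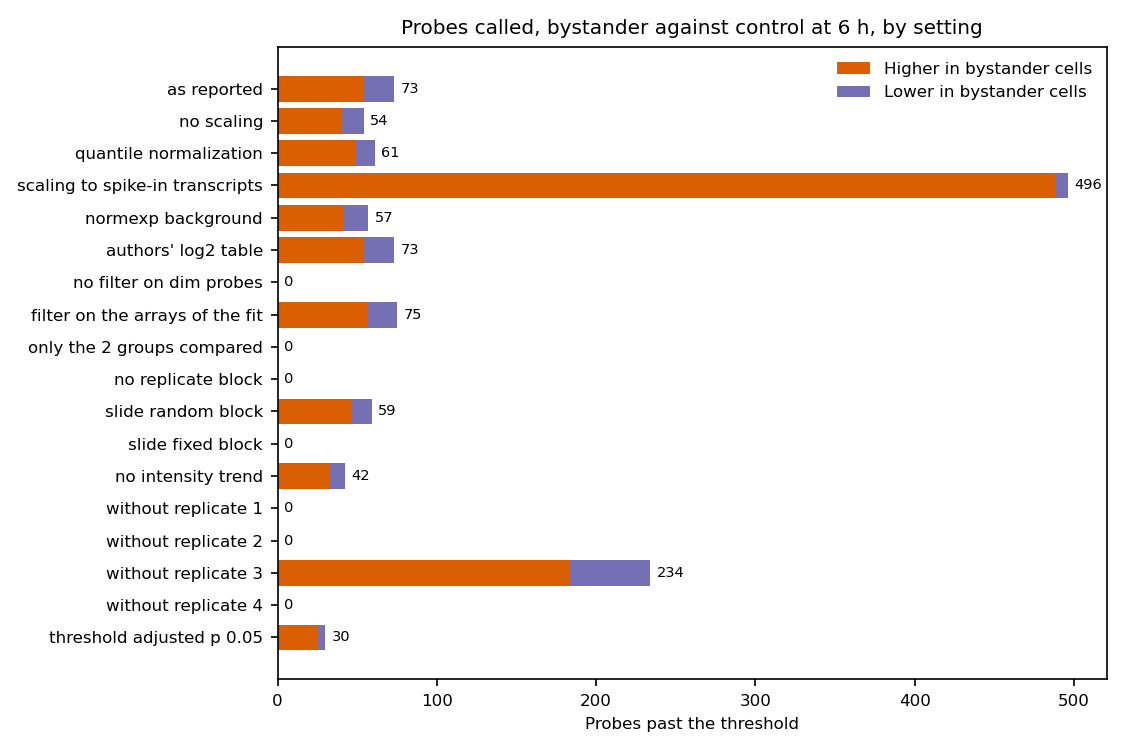
Number of probes called in bystander against control cells at 6 hours (horizontal axis), split into higher and lower, as reported and under each other setting. As reported there were 73 calls, and 7 of the other settings gave 0.

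Chemokines and cytokines were among the genes that rose. Of the 9 CXC chemokines, many of which draw neutrophils to a site of inflammation, 8 were tested at their brightest probe, 1 was called, and the median log2 ratio of the 8 was 1.14. CXCL8, also known as IL8, had levels of 8.19, 8.92, 9.50 and 11.35 in the controls of experiments 1 to 4 and of 13.46, 14.50, 10.87 and 13.73 in the bystander cells. The groups overlapped by a single pair of arrays, since the bystander array of experiment 3 lay under the control array of experiment 4. CXCL8 rose by a log2 ratio of 3.65 ± 2.09 (SD, n = 4; adjusted p = 0.0723 in limma). In bulk RNA of this kind, a change in the number of cells that make a transcript and a change in the transcript per cell cannot be told apart.

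CXCL5 was measured by 2 probes that differed in size. The dimmer one rose by 2.84 ± 1.98 (adjusted p = 0.0963), and the brighter one had a ratio of 1.81 ± 1.54 (adjusted p = 0.175). CXCL3, CXCL2 and CXCL1 were higher in 4 of 4 experiments, with log2 ratios of 1.93, 1.15 and 1.13, but missed the threshold at adjusted p = 0.123, 0.123 and 0.178. CXCL12, which is known for holding stem and immune cells in tissue rather than for drawing neutrophils, went the other way, with a ratio of -0.81 (adjusted p = 0.145) and no overlap between the groups.

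Of the 24 cytokines and CC chemokines 16 were tested and 3 rose, IL33, LIF and IL1A, with a median log2 ratio over the 16 of 0.79. IL33, an alarmin of the interleukin-1 family, had levels of 6.18, 6.35, 5.26 and 6.06 in control cells and of 10.16, 10.21, 6.96 and 9.19 in bystander cells. Every bystander array lay above every control array. The mean ratio was 3.16 ± 1.05 (SD, n = 4) at adjusted p = 0.0105, a minimum that it shared with a KYNU probe through tied adjustment. LIF, a cytokine of the IL6 family that signals through STAT3, rose by 1.61 ± 0.50 (adjusted p = 0.0144), again with no overlap between the groups. A dimmer LIF probe had a ratio of 0.65 (adjusted p = 0.331). IL1A, which acts on the interleukin-1 receptor, rose by 1.31 ± 0.64 (adjusted p = 0.0907).

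IL6 and IL1B, central inflammatory cytokines, were not called. The control levels of IL6 were 7.48, 7.77, 9.17 and 9.91 and the bystander levels 12.36, 12.41, 9.26 and 11.20. Experiments 1 and 2 had ratios of 4.88 and 4.64, experiment 4 had 1.29 and experiment 3 had 0.10, so the mean of 2.73 had an SD of 2.40 (adjusted p = 0.178). IL1B had a mean ratio of 1.72 ± 1.23 (adjusted p = 0.139), higher in 4 of 4 experiments. CCL11, the eosinophil chemokine eotaxin, split the experiments, with ratios of -0.18, 0.37, -3.54 and -3.78 and a mean of -1.78 (adjusted p = 0.296).

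Among the 17 cytokine receptors and JAK-STAT feedback genes 14 were tested, 0 were called, and the median was -0.42 (-0.19 without experiment 4). The largest ratios were those of IL7R (1.20, adjusted p = 0.206) and IL13RA2 (1.13, adjusted p = 0.145). Of the 15 NF-kB subunits and inhibitors, 14 were tested and 0 were called, with a median of 0.06. NFKBIZ, an inducible IkB protein that helps to activate inflammatory genes, had a ratio of 0.90 (adjusted p = 0.147) and RELB a ratio of 0.77 (adjusted p = 0.218). NFKBIA, the main cytoplasmic inhibitor of NF-kB, had ratios of 0.06, 0.05, 0.06 and 0.11. Of 28 other NF-kB targets 25 were tested, their median was 0.23 (0.40 without experiment 3 and 0.04 unscaled), and 1 was called, the mitochondrial superoxide dismutase SOD2. SOD2 rose by 0.72 ± 0.19 with no overlap between the groups (adjusted p = 0.0985). The prostaglandin list had 9 of 11 genes tested, a median of -0.15 and 1 call, PTGS2, also known as COX-2. Its brightest probe rose by 2.59 ± 1.72 (adjusted p = 0.0853) and its dimmer probe by 2.85 ± 1.81 (adjusted p = 0.0723), and the groups did not overlap at the dimmer one.

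**Figure D3:**
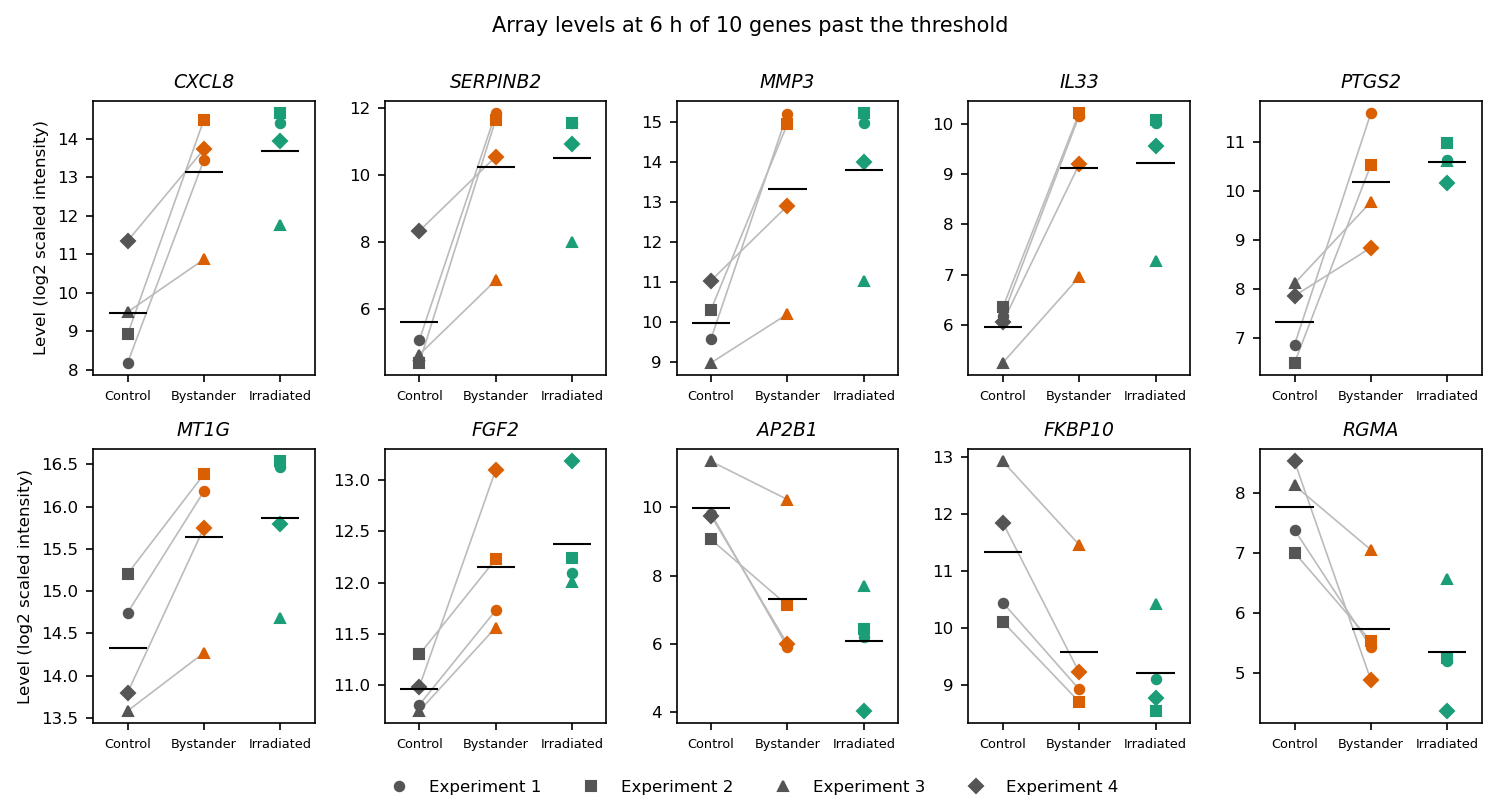
Level on each array (log2 scaled intensity, separate axis per gene) of 10 called genes in control, bystander and irradiated cells at 6 hours, with 1 symbol per experiment, grey lines joining the control and bystander arrays of an experiment, and bars for group means. The bystander arrays of IL33, PTGS2 (dimmer probe) and FGF2 lie above all control arrays, whereas CXCL8, SERPINB2, MMP3, MT1G, AP2B1, FKBP10 and RGMA overlap between groups although each line runs the same way.

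Promoters (250 bases before the start) are shown for 4 of the genes that rose and hold the letters of an AP-1 element there, namely the chemokine, serpin, protease and cytokine among them. RefSeq promoters (build GRCh38.p14) were found for 25 of the 43 genes with a symbol that rose and for 12 of the 15 that fell. The AP-1 letters TGANTCA, searched on both strands, stood in 6 of the 25 (24.0%) and in 0 of the 12, against 6.60% of 27305 promoters of the same length. The 6 were SERPINB2, CXCL8, MMP10, IL1A, MT1B and MT2A. The NF-kB letters GGNNTTNCC stood in 2 of the 25 (8.0%), CXCL8 and CXCL5, and in 1 of the 12 (8.33%), against 14.8% of all promoters. The sequences below run 5′ to 3′ on the strand of the gene up to the base before the start, with AP-1 letters, and for CXCL8 also NF-kB letters, in capitals. They lie at chr4:73740319-73740568 (plus strand) for CXCL8, chr18:63887455-63887704 (plus strand) for SERPINB2, chr11:102780629-102780878 (minus strand) for MMP10 and chr2:112784494-112784743 (minus strand) for IL1A.
CXCL8: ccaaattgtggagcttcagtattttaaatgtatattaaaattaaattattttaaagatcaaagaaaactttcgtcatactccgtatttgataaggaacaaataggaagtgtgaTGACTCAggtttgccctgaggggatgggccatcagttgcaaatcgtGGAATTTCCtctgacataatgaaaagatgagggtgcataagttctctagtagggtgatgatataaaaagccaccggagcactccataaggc
SERPINB2: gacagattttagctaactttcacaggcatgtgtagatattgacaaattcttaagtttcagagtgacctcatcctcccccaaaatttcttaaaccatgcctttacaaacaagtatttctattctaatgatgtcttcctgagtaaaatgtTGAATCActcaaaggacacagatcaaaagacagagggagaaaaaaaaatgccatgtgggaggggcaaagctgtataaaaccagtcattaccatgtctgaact
MMP10: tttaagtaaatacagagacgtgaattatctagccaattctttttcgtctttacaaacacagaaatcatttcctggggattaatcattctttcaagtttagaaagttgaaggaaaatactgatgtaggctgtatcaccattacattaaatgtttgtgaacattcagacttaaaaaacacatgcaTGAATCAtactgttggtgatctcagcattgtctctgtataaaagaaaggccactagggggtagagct
IL1A: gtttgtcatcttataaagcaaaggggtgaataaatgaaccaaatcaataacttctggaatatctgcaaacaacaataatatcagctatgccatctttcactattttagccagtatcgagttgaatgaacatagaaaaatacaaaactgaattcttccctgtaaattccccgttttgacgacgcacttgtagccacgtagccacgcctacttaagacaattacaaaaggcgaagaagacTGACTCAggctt
In CXCL8 the AP-1 letters start 137 bases and the NF-kB letters 91 bases before the start, and the AP-1 letters start 102 bases before it in SERPINB2, 67 in MMP10 and 12 in IL1A. A match of letters is a description of the sequence and not a measured site.

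SERPINB2, the inhibitor of plasminogen activators also called PAI-2, had the largest ratio. Its control levels were 5.08, 4.40, 4.65 and 8.34, and its bystander levels were 11.86, 11.66, 6.86 and 10.56. Only the bystander array of experiment 3 lay below a control array, that of experiment 4. The ratio was 4.62 ± 2.78 (SD, n = 4; adjusted p = 0.0656), and 3 of the 4 control values at this probe were above background. Its brighter probe, on which the bystander array of experiment 1 was missing as non-uniform and dropped from the fit, had a ratio of 4.21 (adjusted p = 0.214). In the plasminogen activator list of 8 genes, taken at the brightest probe, 7 were tested, 0 were called and the median was 0.54. That median was 0.82 without experiment 3 and 0.35 unscaled.

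The proteases MMP10, MMP1 and MMP3 are direct neighbours on chromosome 11 in the RefSeq annotation, and all 3 rose. They were the calls among 11 tested of 16 matrix metalloproteinases and inhibitors, whose median was 0.04. MMP3 had levels of 9.58, 10.31, 8.98 and 11.04 in controls and of 15.22, 14.96, 10.20 and 12.91 in bystander cells, with overlap from experiment 3 alone. It rose by 3.34 ± 2.13 (adjusted p = 0.0723). MMP1 rose by 2.86 ± 1.62 (adjusted p = 0.0544) and MMP10 by 1.86 ± 0.62 (adjusted p = 0.0266), both without overlap. MMP10 was the steadiest of the 3, with ratios of 2.29, 2.49, 1.20 and 1.48.

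Metallothioneins were the list with the most calls. All 16 genes of the metallothionein and zinc list were tested, 7 rose (MT1A, MT1B, MT1E, MT1G, MT1H, MT1L and MT1X), 0 fell, and the median log2 ratio was 0.97. MT1G had levels of 14.75, 15.21, 13.58 and 13.80 in controls and of 16.18, 16.39, 14.27 and 15.75 in bystander cells. The groups overlapped, since the bystander array of experiment 3 lay below the controls of experiments 1 and 2, but each bystander array lay above its own control. MT1G rose by 1.31 ± 0.53 (adjusted p = 0.0324), and its dimmer probe had a ratio of 1.26 (adjusted p = 0.127). MT1B rose by 1.26 ± 0.60 (adjusted p = 0.0557), MT1H by 1.20 ± 0.43 (adjusted p = 0.0324) and MT1E by 1.18 ± 0.64 (adjusted p = 0.0790). MT1X rose by 1.24 and 1.17 at its 2 probes, MT1L by 1.17 (adjusted p = 0.0399) and MT1A by 0.97 (adjusted p = 0.0723).

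MT1F and MT1M had ratios of 1.36 and 0.96 in the same direction but missed the threshold (adjusted p = 0.136 and 0.154). MT2A, read by 3 probes, rose by 0.84 at 1 (adjusted p = 0.0907) and had ratios of 0.76 and 0.77 at the others (adjusted p = 0.237 and 0.240). MT3, the brain form, was the exception at -0.38 (adjusted p = 0.660), with the control array of experiment 1 missing. The zinc exporter SLC30A1 had a ratio of 0.18 (adjusted p = 0.681). The MT1 genes are near-copies, and the MT1X and MT1H probes share 55 of 60 bases, the MT1B and MT1E probes 49, and the called MT1G probe and the MT1L probe 46, so the rises of these pairs cannot be read apart from each other, whereas the MT1A probe shares at most 27 of 60 bases with the probe of another gene of the family. LOC645745, a metallothionein-like locus in the array's annotation, rose by 1.19 (adjusted p = 0.0324).

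In the RefSeq annotation MT2A, MT1E, MT1A, MT1B, MT1G, MT1H and MT1X lie in 1 cluster on chromosome 16 with at most 1 other protein-coding gene between neighbours. The promoters of MT1X (chr16:56682220-56682469, plus strand) and MT2A (chr16:56608334-56608583, plus strand) are shown because they carry several copies of the core of the metal response element, TGCNCNC on either strand, in capitals.
MT1X: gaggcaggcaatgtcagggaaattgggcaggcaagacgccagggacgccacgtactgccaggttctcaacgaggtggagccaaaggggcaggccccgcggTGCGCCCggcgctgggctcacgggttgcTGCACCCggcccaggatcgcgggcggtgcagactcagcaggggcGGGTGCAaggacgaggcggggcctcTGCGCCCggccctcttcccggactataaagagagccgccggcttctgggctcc
MT2A: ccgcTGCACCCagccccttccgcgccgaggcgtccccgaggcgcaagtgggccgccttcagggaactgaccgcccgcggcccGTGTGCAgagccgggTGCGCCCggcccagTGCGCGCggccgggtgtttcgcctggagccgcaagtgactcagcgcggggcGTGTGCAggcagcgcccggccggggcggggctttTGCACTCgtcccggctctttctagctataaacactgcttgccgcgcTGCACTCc
The core stood 4 times in MT1X and 7 times in MT2A. Promoters were found for 4 metallothioneins, and all 4 held at least 3 copies (100%), against 5.74% of all promoters, while at least 1 copy is common and stood in 48.4% of them.

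Other rises fell outside these groups. SLC16A6, a transporter of the monocarboxylate family, rose by 2.71 and 2.66 at its 2 probes (adjusted p = 0.0324 and 0.0373) with no overlap between the groups. The neuron navigator NAV3 rose by 2.57 ± 1.37 (adjusted p = 0.0435), and its other probe had a ratio of 2.44 (adjusted p = 0.121). The tight-junction protein CLDN1 rose by 2.76 ± 1.75 (adjusted p = 0.0853), although only 2 of its 4 control values were above background. PSG6, a pregnancy-specific glycoprotein, rose by 2.40 ± 0.96 (adjusted p = 0.0472), and PSG8 rose by 2.21, but their probes share 50 of 60 bases. The annexin ANXA10 rose by 2.32 ± 1.05 (adjusted p = 0.0415), with 3 of 4 control arrays above background and no overlap.

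KYNU and NAMPT, which fall outside the rule for named genes and were chosen after their values were seen, rose at every probe. KYNU, the kynureninase of tryptophan breakdown, rose by 1.41 ± 0.22 and 1.43 ± 0.27 at its 2 probes (adjusted p = 0.0105 and 0.0120). NAMPT, the rate-limiting enzyme of NAD salvage, rose at all 3 of its probes, by 1.08, 1.07 and 0.75. Of the growth factor ligands 21 of 23 were tested, with a median of 0.35, and 1 was called. FGF2, a mitogen of fibroblasts, had ratios of 0.92, 0.93, 0.82 and 2.12 and no overlap between groups (mean 1.20, adjusted p = 0.0748). Of the immediate early genes 23 of 24 were tested and 0 were called, with a median of 0.05 and the largest ratios in FOSB (0.88) and DUSP5 (0.79).

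The genes that fell were of mixed function. AP2B1, a subunit of the clathrin adaptor that brings receptors into the cell, fell from control levels of 9.82, 9.06, 11.34 and 9.75 to bystander levels of 5.91, 7.13, 10.23 and 6.00. Both arrays of experiment 3 were high, and the bystander array of experiment 3 lay above 3 of the control arrays. AP2B1 fell by 2.68 on the log2 scale (SD of the pairs 1.37, adjusted p = 0.0907), whereas its other probe had a ratio of -0.39 (adjusted p = 0.466), so the fall was seen at 1 of 2 probes. RGMA, a repulsive guidance molecule and BMP co-receptor, had ratios of -1.94, -1.47, -1.07 and -3.63, for a mean of -2.03 (adjusted p = 0.0963).

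FKBP10, a chaperone needed for collagen cross-linking, had control levels of 10.45, 10.11, 12.93 and 11.85 and bystander levels of 8.93, 8.71, 11.46 and 9.23. The bystander array of experiment 3 lay above the controls of experiments 1 and 2, and the ratios were -1.52, -1.40, -1.46 and -2.62. Its fall of 1.75 (adjusted p = 0.0415) was the call of the list of other matrix and cross-linking genes, in which 27 of 29 were tested and the median was -0.16. FBLN1, the matrix protein fibulin 1, fell by 1.13 at one probe (adjusted p = 0.0656) and had a ratio of -0.57 at the brighter one (adjusted p = 0.245). Both FBLN1 probes separated the groups without overlap.

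SEMA4C, a semaphorin, fell by 1.46 at one probe without overlap (adjusted p = 0.0415) and had a ratio of -0.42 at the brighter one (adjusted p = 0.275). ATP1A4, a subunit of the sodium pump, fell by 1.05 at 1 of its 2 probes (adjusted p = 0.0852). Its other probe had a ratio of the same sign and was not called. The elongation factor EEF2 fell by 1.24 (adjusted p = 0.0853), and in experiment 4 by 2.13. MEDAG fell at both of its probes, by 0.92 and 1.05 (adjusted p = 0.0396 and 0.0985). FAM13B, FLJ35934 and INPPL1 fell by 1.04, 1.01 and 0.95, and other probes of the first of these and of FLJ35934 had ratios of -0.60 and -0.15 that were not called.

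Collagen, contractile and TGF-beta genes did not pass the threshold. Of 20 collagen chains 0 were called, with a median of -0.19 and the largest ratios in COL11A1 (-0.71, adjusted p = 0.288) and COL14A1 (-0.64). Of 14 smooth muscle contractile genes 0 were called, with a median of -0.18. MYH11, smooth muscle myosin, had ratios of -0.05, -0.47, -3.98 and -2.16, and DES, desmin, had a mean of -0.95 (adjusted p = 0.215). TGF-beta and SMAD targets had a median of -0.12 over 18 genes with 0 calls, and TGFB3 (-1.03) and SMAD6 (-0.88) had the largest ratios. The medians of the collagen, contractile and TGF-beta lists turned positive when arrays were scaled to the spike-in transcripts.

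Proliferation genes had positive ratios throughout both lists but, with 1 exception, missed the threshold. All 24 genes of the G2 and mitosis list had a positive log2 ratio, with a median of 0.82 and a range from 0.32 to 1.25. None of the 24 was called at adjusted p below 0.10, while 21 had an unadjusted p below 0.05, against 6.47% of all probes on the higher side. CENPE and TTK, a centromere motor and a spindle checkpoint kinase, had the largest ratios, 1.25 each (adjusted p = 0.188 and 0.156). TTK had control levels of 8.47, 8.11, 7.45 and 7.12 and bystander levels of 8.92, 9.36, 8.60 and 9.27, with no overlap. The list's median was 0.62, 0.79, 0.32 and 1.61 in experiments 1 to 4, and it stayed positive, between 0.58 and 1.02, when any experiment was left out.

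All 25 tested genes of the 27 on the G1/S and DNA replication list had a positive ratio too, with a median of 0.49, and 1 was called. It was RFC3, a subunit of the clamp loader of DNA replication, which rose by 1.16 ± 0.59 (adjusted p = 0.0907). The list's median was 0.41, 0.49, -0.26 and 1.32 in the 4 experiments, and it was 0.15 without experiment 4 and 0.70 without experiment 3. Unscaled it was 0.29, and with spike-in scaling it was 0.69. The polyamine list of 10 genes had 0 calls and a median of 0.02, with ODC1, the enzyme that starts polyamine synthesis, at 1.28 (adjusted p = 0.142) and ARG2 at -0.85.

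**Figure D4:**
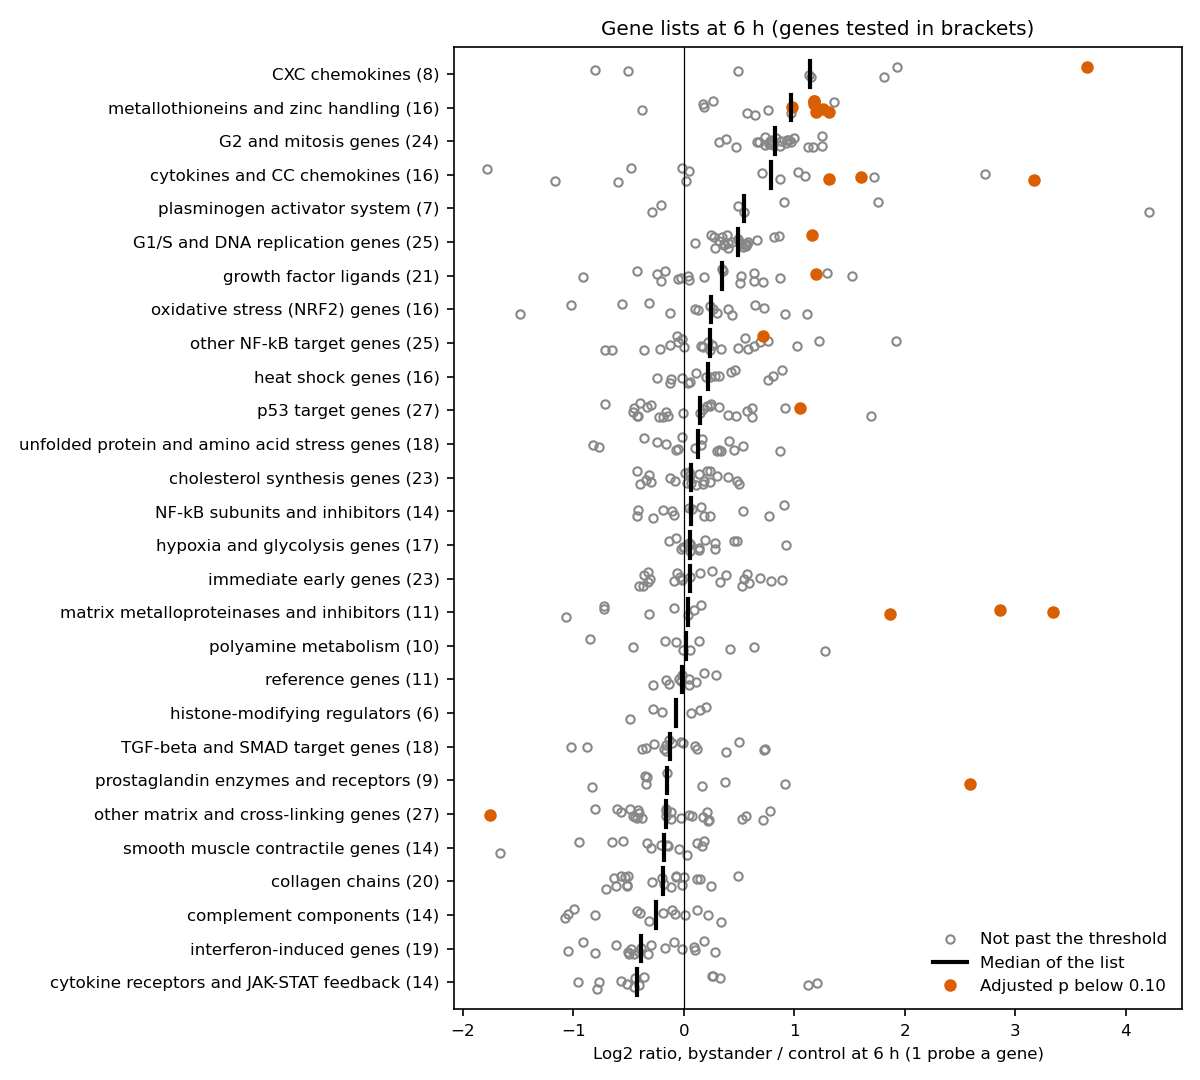
Log2 ratio of bystander to control at 6 hours for each gene of 28 lists (1 probe a gene, vertical position within a row is arbitrary), with called genes filled and the list median as a bar. All genes of the G2 and mitosis and the G1/S lists lie right of 0, and the called genes lie mainly among the chemokines, cytokines, metallothioneins and metalloproteinases.

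Of the 27 p53 target genes all were tested, the median log2 ratio was 0.14 (-0.05 unscaled and -0.04 without experiment 1), and 1 was called, GADD45A, a growth arrest gene that also answers stress kinases. GADD45A had levels of 11.16, 11.13, 11.16 and 11.08 in controls and of 12.21, 12.47, 11.83 and 12.23 in bystander cells and the groups did not overlap. It rose by 1.05 ± 0.28 (adjusted p = 0.0324). CDKN1A, the cell cycle inhibitor p21, had ratios of 0.59, 1.25, 0.36 and -0.94 (mean 0.32, adjusted p = 0.614). GDF15, a stress-induced member of the TGF-beta family, had ratios of 3.51, 3.30, 0.02 and -0.07, a clear split between experiments 1 and 2 and experiments 3 and 4 (mean 1.69, adjusted p = 0.245).

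The irradiated cells of the same dishes were compared with the bystander cells directly, to ask where the response of cells that were not hit differed from that of cells that were. In this contrast, 0 of 25246 probes were called (0.0%), the smallest adjusted p was 0.637, and 383 had an unadjusted p below 0.05. With the fit limited to these 2 groups, 1720 had an unadjusted p below 0.05 and 5 probes were called, for VWCE, BBC3, DDB2, FDXR and TNFRSF10C, all higher in irradiated cells. These 5 were named after their values were seen. The intervals below come from the fit to 12 arrays. The deviations of irradiated and bystander arrays correlated at 0.05, 0.55, 0.88 and 0.82 in the 4 experiments. That fit does not use this closer relation, so the intervals may be too wide for this contrast. An interval that holds 0 therefore does not show that the groups were alike.

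For the p53 list the irradiated mean was above the bystander mean for 24 of its 27 genes, the median difference was 0.70, and for 19 the 95% interval of the difference, unadjusted, lay above 0. FDXR, a mitochondrial reductase controlled by p53, differed by 1.35 (interval 0.86 to 1.84, adjusted p = 0.694). CDKN1A differed by 1.17 (0.55 to 1.80), the death receptor FAS by 0.77 (0.43 to 1.11) and GADD45A by 0.70 (0.37 to 1.02). Against the shared controls, 14 of the 27 were called in irradiated cells, where 4.88% of all probes were called higher and 5.63% lower, and the median ratio there was 0.80.

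For the G2 and mitosis list the irradiated mean was below the bystander mean for 24 of 24 genes, with a median difference of -0.43, and the interval lay below 0 for 4. KIF20A, a mitotic kinesin, differed by -0.94 (interval -1.45 to -0.43) and CDC20, an activator of the anaphase-promoting complex, by -0.69 (-1.29 to -0.08). For the inflammatory genes the interval held 0. CXCL8 differed by 0.55 (-0.85 to 1.96), IL33 by 0.10 (-0.61 to 0.81), MMP1 by 0.37 (-0.66 to 1.39) and MT1G by 0.22 (-0.17 to 0.62). For 69 of the 73 called probes the interval held 0, while for 67 the irradiated mean lay farther from the control mean than the bystander mean did. Their median size was 1.56 in irradiated and 1.27 in bystander cells against the controls they share, and 2655 probes (10.5%) were called in irradiated against control cells. The 4 whose interval excluded 0 were GADD45A, AP2B1, which differed by -1.23 (-2.33 to -0.12), ATP1A4 and a MEDAG probe.

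**Figure D5:**
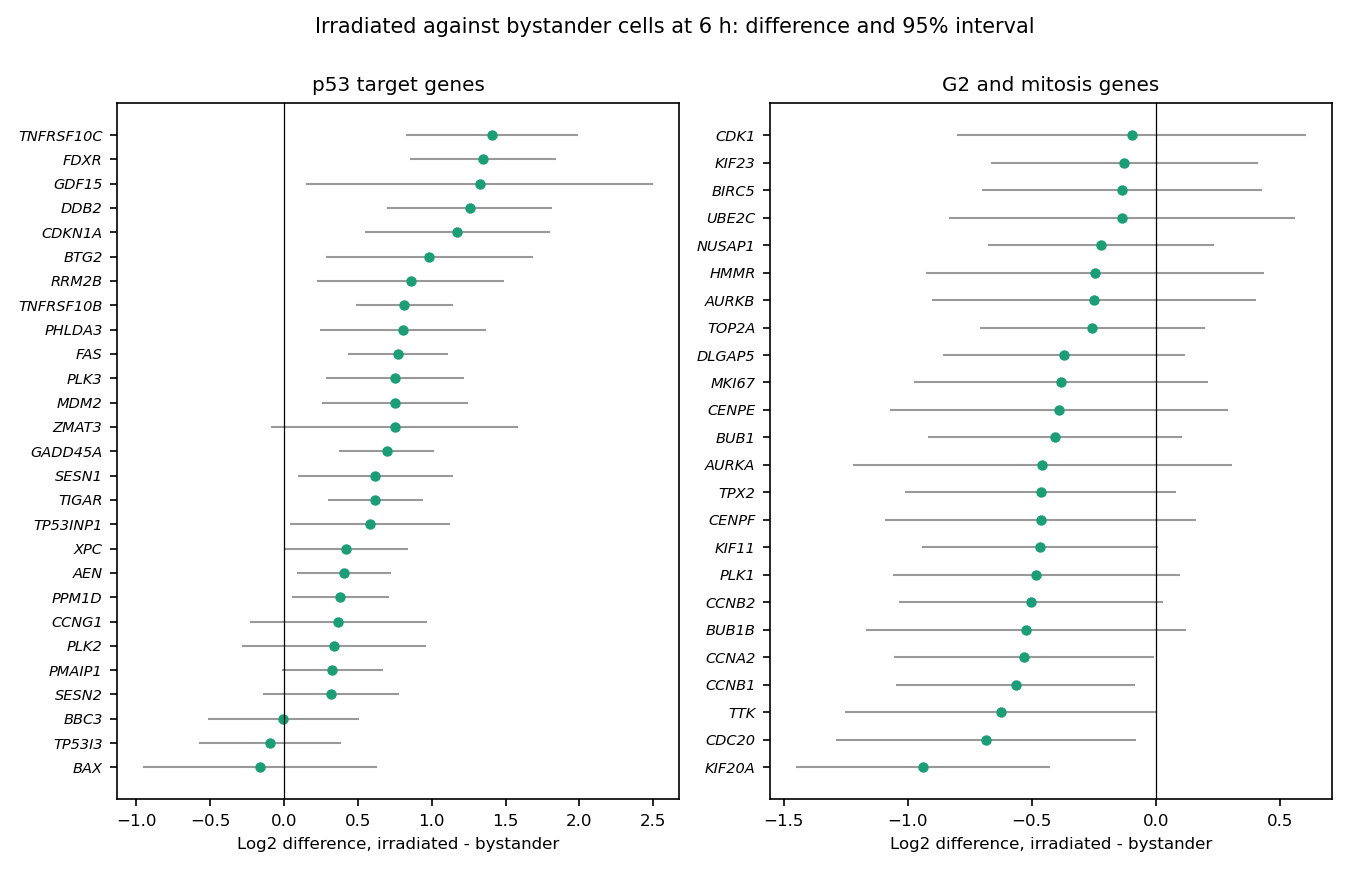
Difference of irradiated minus bystander cells at 6 hours (log2) with its unadjusted 95% interval from limma, for 27 p53 target genes (left) and 24 G2 and mitosis genes (right). Of the p53 targets 24 lie right of 0, and all 24 mitosis genes lie left of it.

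The bystander response at 6 hours was also set against that at 4 hours, in a fit to the 16 bystander and control arrays of both times, each time with its own controls. For the difference between the 2 times 0 probes were called (0.0%), the smallest adjusted p was 1.00, and 177 had an unadjusted p below 0.05. The called rises had a median log2 ratio of 1.34 at 6 hours and of 1.54 at 4 hours, and the interval of the difference excluded 0 for 5 of the 54. CXCL8 had ratios of 3.65 at 6 hours and 3.33 at 4 hours, IL33 of 3.16 and 2.34, and MT1G of 1.31 and 1.81. The called falls had medians of -1.13 at 6 hours and -0.57 at 4 hours, and the interval excluded 0 for 9 of the 19. Since these probes were selected on their values at 6 hours, their sizes at that time are a description.

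Some differences between the times were wide. PSG6 had a ratio of 2.40 at 6 hours and of 0.05 at 4 hours (difference 2.34, interval 0.83 to 3.85), and AP2B1 had -2.68 and -0.82. NAMPT had smaller ratios at 6 than at 4 hours at all 3 probes (differences of -0.41, -0.36 and -0.81), and the interval of the difference excluded 0 for the last of these. The G2 and mitosis list had a median of 0.82 at 6 hours and of 0.07 at 4 hours, and for 11 of its 24 genes the unadjusted interval of the difference lay above 0. With the slide as a random or a fixed block 0 probes were called for the difference between times (141 and 108 at an unadjusted p below 0.05). Unscaled values also gave 0 calls, but 2440 probes had an unadjusted p below 0.05. The median difference over all probes was then -0.65, against 0.01 with scaling. The difference of the G2 and mitosis list, with a median of 0.69, therefore depends on the scaling.

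The remaining lists had 0 called genes at the brightest probe. Interferon-induced genes had a median of -0.39 over 19 tested of 27, which was -0.05 without experiment 4, with IFIT1 at -1.05 and STAT2 at -0.92, both largest in size in experiment 4 (-3.66 and -2.58). Complement components had a median of -0.26 over 14, which was -0.05 with spike-in scaling and -0.45 unscaled. SERPING1, the C1 inhibitor, had a ratio of -1.08 (adjusted p = 0.123) and CFI a ratio of -1.05 (adjusted p = 0.214). Oxidative stress genes under NRF2 had a median of 0.25 over 16, with AKR1B10 at 1.12 (adjusted p = 0.342). Heat shock genes had a median of 0.21 over 16 tested of 17, with HSPA1A at 0.89 and CRYAB at 0.81.

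Genes of the unfolded protein and amino acid stress response had a median of 0.13 over 18. The cystine transporter SLC7A11 had a ratio of 0.87 at its brightest probe (adjusted p = 0.248) and rose by 1.27 at another (adjusted p = 0.0656), and DDIT4 had a ratio of -0.82. Cholesterol synthesis genes had a median of 0.06 over 23, with HMGCS1 at 0.50 and EBP at 0.48. Hypoxia and glycolysis genes had a median of 0.05 over 17 of 18, with HK2 at 0.93 and PDK1 at 0.48. Among 6 histone-modifying regulators the median was -0.07, with KDM6B, listed under its older name JMJD3, at -0.49, KDM5B at -0.28 (adjusted p = 0.386, with its other probe at -0.42 and 0.364), HDAC1 at -0.20 and HDAC2 at 0.20. The 11 reference genes had a median of -0.02, between -0.28 for RPLP0 and 0.29 for HPRT1. The medians of the NF-kB subunit, immediate early, metalloproteinase, prostaglandin, p53, polyamine, other matrix, unfolded protein, cholesterol, hypoxia, histone regulator and reference lists turned sign under another scaling of the arrays, as did the epithelial and endothelial markers. Leaving out 1 experiment turned the medians of the TGF-beta, contractile, metalloproteinase, prostaglandin, p53, polyamine, hypoxia and reference lists and of the epithelial and leukocyte markers. Without experiment 4 the growth factor median was 0.08 and the heat shock median 0.09, and without experiment 1 the NRF2 median was 0.02.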

How the data were processed

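Per the file headers, the authors scanned 1-colour Agilent arrays of Cy3-labelled cRNA, made from 300 ng of total RNA, with Feature Extraction, and deposited for each spot a processed intensity, after background subtraction and spatial detrending, with no normalization between arrays. Their deposited table of log2 values holds the log2 of the same intensity and served as an alternative.

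Control spots were left out, non-uniform spots were set to missing (141 values among the tested probes at 6 hours), arrays were scaled to a common 75th percentile, and spots of a probe were averaged. Of 41000 probes, 25246 passed the study's rule (at most 10% of 72 arrays dim or non-uniform). At 6 hours limma 3.58.1 in R 4.3.3 was fitted to 12 arrays with experiment as a block (6 residual degrees of freedom, intensity trend). The fit was also run on simulated data with independent errors. That run cannot show what unequal correlation between the arrays of an experiment does to the p-values. The pairing comes from the study's methods. Same-numbered arrays of different groups had correlated deviations (above 0.1) in 10 of 12 pairs, and in 3 of the 4 bystander and control pairs.

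Symbols came from the deposited annotation, updated by accession through RefSeq for 23680 probes. A gene of a list was taken at its brightest probe. Named genes are the 12 largest rises and 12 largest falls among called probes with 4 like signs, up to 4 called members of each list or else the 2 largest, and genes the study names. Other genes were named after their values were seen, and some that the rule takes are not reported here. Members, lists and tests were chosen with earlier results of these data known.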

Additional observations from a re-analysis of the deposited data

Results flagged for a closer look

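Of the 198 groups of 4 arrays examined for the named genes and array measures, 7 held an array that stood apart by Dixon's criterion, and chance alone would flag about 1 in 20. The control array of experiment 3 was high for IL1B (10.52, with the other 3 at 9.78 or below) and for the added spike-in transcripts (12.93). The control array of experiment 4 was low for CXCL3 (8.20, with the next at 9.31). The control array of experiment 2 was high for HPRT1 (10.30). The bystander array of experiment 4 was low for IL1A (4.90, with the next at 6.71), TGFB3 (7.55) and IFIT1 (6.82, with the next at 10.19).

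Among the 15754 probes that the brightness rule left out, 6 were above background on all 4 bystander arrays and on 0 of the 4 control arrays. The mean bystander level was compared with the lowest signal above background on each control array. That signal is not a strict ceiling for spots not above background, and the probes were picked on these same arrays. The ratios are therefore a description of means and not a minimum for each array. The ratio was 6.48-fold for CCL26, a chemokine for eosinophils, although a second CCL26 probe was above background on 2 of the 4 control arrays. It was 4.65-fold for TRIML2, 3.63-fold for MFSD6L, 2.60-fold for SERPIND1, 2.22-fold for SMC4, a condensin subunit, and 2.01-fold for RADX. For RADX this was the plain ratio of the group means. In the other direction, RCVRN, PLA2G2A, KDF1 and H4C7 were above background on 4 control and 0 bystander arrays. These differences were not tested.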

How the results depend on the processing

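In the comparison 73 probes were called (54 higher, 19 lower). Since each had 4 like signs, leaving out an experiment, the block or the irradiated arrays could not turn them, and under the scalings, the background correction and the slide blocks they also kept their direction. The number of calls was 54 to 75 with unscaled, quantile or normexp values, the authors' table, the filter on the 6-hour arrays and the slide as a random block, and quantile values gave 12 lower calls. It was 496 (489 higher, 7 lower) with scaling to spike-in transcripts, 42 (33 and 9) without the intensity trend and 30 (25 and 5) at adjusted p below 0.05. It was 0 in limma with no filter on dim probes (4390 probes at an unadjusted p below 0.05), only the 2 groups (2113), no replicate block (1626) or the slide as a fixed block (3519), and with 1 experiment left out it ran from 0 to 234 in all, 0 to 183 higher and 0 to 51 lower. Irradiated against bystander gave 0 calls except 5 with only the 2 groups, and the difference between 6 and 4 hours gave 0 throughout. Single ratios that turned were CDKN1A -0.15 with the slide fixed, HDAC1 0.00808 with spike-in scaling, and, with 1 experiment left out, MT3 (-0.82 to 0.19), PDK1 (-0.0458 to 0.81), CLDN5 (-0.0178 to 0.48) and CD3E (-0.20 to 0.39). The cause was not tested.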
